A study of Mus musculus with 12 samples.

Results

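Intracellular calcium release channels and SERCA pumps are the proteins through which calcium leaves and re-enters the endoplasmic reticulum. Their 9 genes were taken by symbol from the gene count tables: the ryanodine receptor genes Ryr1, Ryr2 and Ryr3, the inositol trisphosphate (IP3) receptor genes Itpr1, Itpr2 and Itpr3, and the SERCA genes Atp2a1, Atp2a2 and Atp2a3. Each was listed once, and all 9 were among the 19052 genes that passed the filter on low counts. RNA was sequenced from organs of Corti of mice at postnatal day 21, with 3 libraries for each of 4 genotypes: wild-type, Clrn1-/-, Clrn2-/- and Clrn1-/-Clrn2-/-. Clrn1 and Clrn2 encode clarin-1 and clarin-2, membrane proteins whose loss causes deafness. Clrn1-/- mice carried a constitutive deletion of exon 4, made with PGK-cre, Clrn2-/- mice were homozygous for the clarinet nonsense allele, and crossing these lines gave Clrn1-/-Clrn2-/- mice, called the double mutant here. Every mouse was killed with ketamine and xylazine, and the stria vascularis and modiolus were dissected away. Wild-type animals came from separate breedings rather than from the mutants' litters, so genotype and breeding line cannot be told apart in any comparison with wild-type. The labels do not say whether the libraries of a genotype came from separate mice or pools, and p-values here measure the spread between those libraries.

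Ryanodine receptors are very large channels that open in response to calcium itself or, in skeletal muscle, to the voltage sensor of the surface membrane, and they amplify a small calcium signal into a larger one. IP3 receptors open when IP3, produced by phospholipase C after activation of Gq-coupled receptors, binds together with calcium. SERCA pumps use ATP to carry calcium back into the store. In the cochlea, store release has been linked to efferent inhibition and transmitter release in hair cells and to the calcium waves of supporting cells, while the plasma membrane pumps, which are not members of this group, clear calcium from the hair bundle.

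The 12 libraries held 30008679 to 41049302 counts assigned to genes, and the common biological coefficient of variation was 6.15%. Clrn1 fell from 25.8 ± 2.47 CPM (counts per 1000000, scaled by trimmed mean of M-values, with SD, n = 3) in wild-type to 2.83 ± 0.184 in Clrn1-/- and 2.30 ± 0.482 in Clrn1-/-Clrn2-/-, and was 28.8 ± 2.83 in Clrn2-/-. Clrn2 was at 2.72 ± 0.727 CPM in wild-type and lower in all mutants, with 1.23 ± 0.172 in Clrn2-/-, 1.08 ± 0.138 in the double mutant and 0.916 ± 0.107 in Clrn1-/-, so its level does not separate the Clrn2 genotypes. All 14 hair cell markers were detected well enough to be tested, and so were all 17 neuron markers and all 9 markers of the stria vascularis. In such bulk tissue, fewer cells of a type and less RNA per cell cannot be told apart. A gene was called when edgeR's quasi-likelihood test gave an adjusted p (Benjamini-Hochberg over all genes tested) of at most 0.05 and the fold change was at least 1.5.

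To compare genes with each other, levels were expressed per kb of exon (FPKM). Atp2a2, the widely expressed SERCA2 pump, had by far the highest level in wild-type, 110 ± 0.938 FPKM (SD, n = 3). Atp2a3, the SERCA3 pump known from epithelia and blood cells, followed at 16.2 ± 1.14 FPKM, and Itpr3, an IP3 receptor typical of secretory epithelia, at 14.5 ± 0.115 FPKM. Itpr1, the main neuronal IP3 receptor, had 6.50 ± 0.438 FPKM, and Itpr2 2.13 ± 0.290 FPKM. The ryanodine receptors stood lower, with Ryr2, the cardiac and brain isoform, at 1.48 ± 0.0481 FPKM and Ryr3, a broadly and weakly expressed isoform, at 0.640 ± 0.0425 FPKM. The skeletal muscle isoforms came last, with Atp2a1 (SERCA1) at 0.320 ± 0.0171 FPKM and Ryr1 at 0.0188 ± 0.00485 FPKM. In wild-type no gene's libraries overlapped those of its neighbour in this order.

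**Figure D1:**
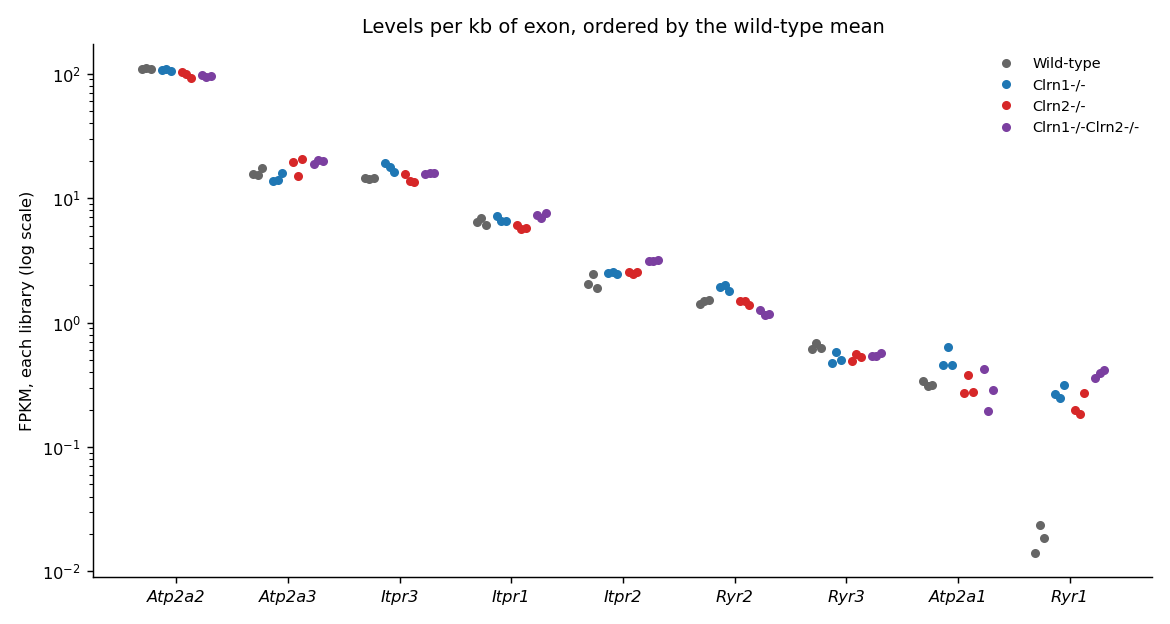
Level of each gene per kb of exon (FPKM, log scale) in every library, with genes ordered by the wild-type mean and points coloured by genotype. Ryr1 is the gene whose position moves most: its wild-type libraries lie near 0.0188 FPKM, below every other gene, while its Clrn1-/-Clrn2-/- libraries average 0.388 FPKM and overlap those of Atp2a1.

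The order was largely shared by the mutants. In Clrn1-/- organs of Corti Itpr3 (17.7 ± 1.50 FPKM) stood above Atp2a3 (14.6 ± 1.21 FPKM), and Ryr3 and Atp2a1 had overlapping libraries, at 0.517 ± 0.0516 and 0.514 ± 0.102 FPKM. In Clrn2-/- the libraries of Atp2a3 (18.5 ± 2.90 FPKM) and Itpr3 (14.3 ± 1.11 FPKM) overlapped. In Clrn1-/-Clrn2-/- Ryr1 (0.388 ± 0.0293 FPKM) stood above Atp2a1 (0.303 ± 0.115 FPKM), with overlapping libraries.

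Ryr1, whose protein is the calcium release channel of skeletal muscle, was over-expressed in all 3 mutant genotypes. Its counts were 11, 19 and 16 in the wild-type libraries, 184, 209 and 263 in Clrn1-/-, 160, 132 and 210 in Clrn2-/-, and 237, 290 and 350 in Clrn1-/-Clrn2-/-. As CPM these are 0.309, 0.520 and 0.405 in wild-type libraries, 5.82, 5.41 and 6.83 in Clrn1-/-, 4.30, 4.04 and 5.90 in Clrn2-/-, and 7.77, 8.62 and 9.02 in the double mutant. Every mutant library lay far above every wild-type library, and every double mutant library lay above every library of a single mutant. The increase was 14.5-fold in Clrn1-/- (log2 fold change 3.86, SE 0.21, adjusted p = 3.5e-09), 11.4-fold in Clrn2-/- (3.52, SE 0.21, adjusted p = 1.17e-07) and 20.4-fold in Clrn1-/-Clrn2-/- (4.35, SE 0.20, adjusted p = 4.44e-10). Among the 19052 genes tested these were the 35th, 11th and 18th largest increases by log2 fold change. Because the wild-type level rests on 11 to 19 counts, the 95% intervals of these folds were wide, from 10.7 to 19.7, from 8.37 to 15.7 and from 15.2 to 27.5.

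The reads that carried the increase lay on the strand of Ryr1, since the opposite strand of the gene held 0 to 2 counts in any library. Ryr1 lies on the minus strand of chromosome 7 (GRCm38, chr7:29003344-29125179) with 109 merged exons over 21838 bases, next to Map4k1 and Rasgrp4. Of 23 other genes tested within 200 kb of it, none was called higher and 3 were called lower in Clrn1-/-, beside 7.22% of all genes. In Clrn2-/- none was called higher and 1 lower, beside 2.66% of all genes. In Clrn1-/-Clrn2-/- 3 were called higher (Actn4, Spint2 and 2200002D01Rik) and 2 lower, beside 9.9% of all genes. Gm10648 was called lower in all 3 mutants. Spint2 was higher in all 3 by adjusted p, with log2 fold changes of 0.48 (adjusted p = 5.58e-05), 0.53 (adjusted p = 6.34e-05) and 1.24 (adjusted p = 1.25e-09), and passed the minimum fold in the double mutant. Spred3 was lower in all 3 by adjusted p, under the minimum fold. Its log2 fold changes were -0.38 (adjusted p = 0.00169), -0.37 (adjusted p = 0.00441) and -0.38 (adjusted p = 0.00114).

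The upstream sequences of Ryr1 and Ryr2 are shown, the members for which the interaction term described below was called. Each is 222 bases long, taken from RefSeq (GRCm38.p6) between 250 and 29 bases before the annotated start, and written 5′ to 3′ on the gene's own minus strand. The Ryr1 stretch is chr7:29125180-29125401 and the Ryr2 stretch chr13:12106974-12107195. Capitals mark every GC box (GGGCGG) and every E-box (CANNTG), searched on both strands.
Ryr1: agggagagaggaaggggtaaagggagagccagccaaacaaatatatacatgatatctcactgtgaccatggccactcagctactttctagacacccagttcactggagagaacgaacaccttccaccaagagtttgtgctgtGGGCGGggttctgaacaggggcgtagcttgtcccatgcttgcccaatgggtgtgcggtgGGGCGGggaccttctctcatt
Ryr2: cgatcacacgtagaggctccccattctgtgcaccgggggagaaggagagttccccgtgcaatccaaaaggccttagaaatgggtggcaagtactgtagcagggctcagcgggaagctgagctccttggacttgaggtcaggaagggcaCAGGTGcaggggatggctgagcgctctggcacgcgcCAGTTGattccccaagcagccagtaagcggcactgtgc
Ryr1 held 2 GC boxes and no E-box in this window, whereas Ryr2 held 2 E-boxes and no GC box, and neither held TATAAA. Over the 27025 genes with such a window, 28.8% held a GC box, 62.2% an E-box and 10.5% TATAAA, so each of these features is common, and a match of letters is not evidence of a bound site.

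Ryr2, which was the main ryanodine receptor by level, was higher in Clrn1-/- and lower in the double mutant. Its CPM was 40.9, 43.0 and 43.5 in wild-type libraries, 55.3, 57.5 and 51.9 in Clrn1-/-, 43.3, 42.8 and 39.6 in Clrn2-/-, and 36.5, 33.3 and 34.0 in the double mutant. The libraries of Clrn1-/- were all above, and those of Clrn1-/-Clrn2-/- all below, the wild-type libraries, and those of Clrn2-/- overlapped them. Ryr2 was 1.29-fold higher in Clrn1-/- (log2 fold change 0.37, SE 0.05, adjusted p = 0.000116) and 0.814-fold the wild-type level in Clrn1-/-Clrn2-/- (-0.30, SE 0.06, adjusted p = 0.000483), both under the minimum fold of a call. In Clrn2-/- the log2 fold change was -0.02 (95% interval -0.14 to 0.10, adjusted p = 0.858). Compared directly, Ryr2 was under-expressed in Clrn1-/-Clrn2-/- relative to Clrn1-/- at 0.630-fold (-0.67, adjusted p = 2.98e-07), which was called. The summed level of the 17 neuron markers also moved, from 12639 to 13843 CPM in wild-type to 8917 to 9061 CPM in Clrn1-/-Clrn2-/-, but was 11697 to 12211 CPM in Clrn1-/-, where Ryr2 was higher. In the double mutant 3 of the 17 were called higher and 4 lower, with a median log2 fold change of -0.40. The part of neuronal RNA in the Ryr2 values was not tested.

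Ryr3 was slightly lower in each mutant, and in no comparison was it called. Its CPM was 11.6, 13.1 and 11.8 in wild-type libraries, 9.05, 10.9 and 9.48 in Clrn1-/-, 9.25, 10.5 and 9.98 in Clrn2-/-, and 10.3, 10.3 and 10.9 in the double mutant. All 9 mutant libraries lay below the lowest wild-type library, by a small margin. The log2 fold changes were -0.30 (SE 0.09, adjusted p = 0.015) in Clrn1-/-, -0.29 (SE 0.09, adjusted p = 0.0318) in Clrn2-/- and -0.21 (SE 0.09, adjusted p = 0.0669) in Clrn1-/-Clrn2-/-. Neither single mutant's decrease passed under every alternative run, where the adjusted p rose to 0.0784 in Clrn1-/- and 0.133 in Clrn2-/-.

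The make-up of the ryanodine receptor transcripts shifted more than their sum. Summed over the 3 genes, the level was 2.13 ± 0.0821 FPKM in wild-type libraries, 2.70 ± 0.107 in Clrn1-/-, 2.20 ± 0.0283 in Clrn2-/- and 2.14 ± 0.0423 in the double mutant. Ryr1 made up 0.878 ± 0.195% of that sum in wild-type libraries, 10.2 ± 1.60% in Clrn1-/-, 9.92 ± 2.22% in Clrn2-/- and 18.1 ± 1.46% in the double mutant. Ryr2 held 69.2 ± 1.31% in wild-type and 56.1 ± 2.16% in Clrn1-/-Clrn2-/-, and Ryr3 went from 30.0 ± 1.17% to 25.8 ± 0.711%. Ryr1 thus remained the smallest of the 3 in every genotype even where its relative change was greatest.

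**Figure D2:**
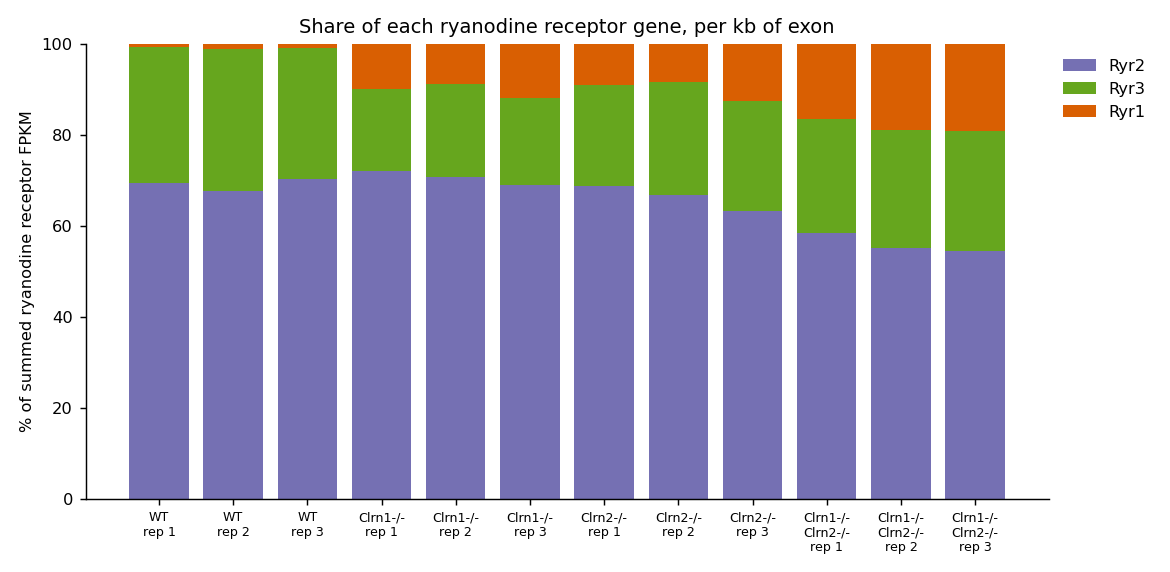
Stacked bars give the share (%) of Ryr2, Ryr3 and Ryr1 in the summed ryanodine receptor FPKM of each of the 12 libraries. The Ryr1 segment is a thin line in wild-type (0.692 to 1.08%) and spans 8.31 to 12.5% in the single mutants and 16.4 to 19.1% in Clrn1-/-Clrn2-/-.

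Itpr1 had 117, 128 and 112 CPM in wild-type libraries, 131, 121 and 119 in Clrn1-/-, 111, 103 and 106 in Clrn2-/-, and 134, 126 and 138 in the double mutant. The wild-type libraries overlapped those of Clrn1-/- and Clrn1-/-Clrn2-/- and lay just above those of Clrn2-/-. The log2 fold changes against wild-type were 0.05 (adjusted p = 0.519), -0.16 (adjusted p = 0.0571) and 0.16 (adjusted p = 0.0311) in the same order of mutants. The clearest difference was between mutants, with Itpr1 1.25-fold higher in Clrn1-/-Clrn2-/- than in Clrn2-/- (log2 fold change 0.32, SE 0.05, adjusted p = 0.000445), still under the minimum fold.

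Itpr2, the IP3 receptor with the highest affinity for IP3 and the one found in glia and many non-excitable cells, was higher in every mutant. It had 30.5, 36.3 and 27.9 CPM in wild-type libraries, 36.9, 37.4 and 36.4 in Clrn1-/-, 37.8, 36.5 and 38.0 in Clrn2-/-, and 46.1, 46.2 and 47.2 in the double mutant. The second wild-type library nearly reached the single mutants, whereas the double mutant libraries stood clear of all others. The folds were 1.17 (log2 fold change 0.23, adjusted p = 0.0258), 1.19 (0.25, adjusted p = 0.0283) and 1.47 (0.56, SE 0.07, adjusted p = 1.19e-05), the last just under the 1.5 of a call. Without the second wild-type library Itpr2 was called in Clrn1-/-Clrn2-/- (log2 fold change 0.66), and also when libraries were scaled by size alone (0.60). In the single mutants the increase did not pass under every alternative. The adjusted p rose to 0.111 in Clrn1-/- and 0.109 in Clrn2-/-, and the log2 fold change went as low as 0.14 and 0.16. The summed level of 10 macrophage markers was 162 to 203 CPM in wild-type, 277 to 301 in Clrn1-/- and 287 to 335 in Clrn1-/-Clrn2-/-. In Clrn2-/- it was 192 to 238 CPM and overlapped wild-type. Of the 10, 4 were called higher in Clrn1-/-, 1 in Clrn2-/- and 6 in the double mutant. The shares of all genes called in either direction were 7.22%, 2.66% and 9.9%. The 9 fibroblast and bone markers summed to 1715 to 2103 CPM in wild-type and 2565 to 2776 CPM in Clrn1-/-Clrn2-/-. The part of either cell type in the Itpr2 values was not tested.

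Itpr3 was higher in Clrn1-/-, with smaller differences in the other mutants. It had 130, 129 and 131 CPM in wild-type libraries, 172, 161 and 145 in Clrn1-/-, 140, 124 and 122 in Clrn2-/-, and 142, 145 and 144 in the double mutant. The Clrn1-/- and double mutant libraries all exceeded the wild-type ones, while those of Clrn2-/- lay on both sides of them. The increase in Clrn1-/- was 1.22-fold (log2 fold change 0.29, SE 0.06, adjusted p = 0.00176), against log2 fold changes of -0.02 (adjusted p = 0.876) in Clrn2-/- and 0.14 (adjusted p = 0.0811) in Clrn1-/-Clrn2-/-. Itpr3 kept 60.5 to 65.6% of the summed IP3 receptor level as the mean of each genotype, and the sum itself was 23.1 ± 0.614 FPKM in wild-type libraries, 26.9 ± 1.83 in Clrn1-/-, 22.6 ± 1.32 in Clrn2-/- and 26.3 ± 0.322 in the double mutant.

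Atp2a1, the SERCA pump of fast skeletal muscle, was called higher in Clrn1-/-, on few counts. The counts were 42, 39 and 43 in wild-type libraries, 50, 85 and 61 in Clrn1-/-, 35, 43 and 34 in Clrn2-/-, and 45, 23 and 39 in the double mutant. As CPM, the wild-type libraries had 1.18, 1.07 and 1.09, those of Clrn1-/- 1.58, 2.20 and 1.58, those of Clrn2-/- 0.941, 1.32 and 0.955, and those of the double mutant 1.48, 0.684 and 1.01. Only the Clrn1-/- libraries stood apart from wild-type, the second of them farthest. The increase was 1.61-fold (log2 fold change 0.69, SE 0.24, adjusted p = 0.0431). It missed the threshold without any 1 of the wild-type libraries (adjusted p 0.0742 to 0.0971), without the first or second Clrn1-/- library (adjusted p = 0.0557 and 0.192) and with the replicate number as a block (log2 fold change 0.69, adjusted p = 0.0557). Atp2a1 (chr7:126445858-126463108, minus strand) shares 763 exonic bases with Rabep2 on the other strand, and 50.8 to 64.6% of its stranded counts per genotype lay on that strand. With unstranded counts the log2 fold change in Clrn1-/- was 0.56 (adjusted p = 0.0548).

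Atp2a2 supplied most SERCA transcripts and was slightly lower where clarin-2 was missing. It had 663, 674 and 671 CPM in wild-type libraries, 649, 667 and 643 in Clrn1-/-, 624, 611 and 565 in Clrn2-/-, and 597, 575 and 582 in the double mutant. The Clrn2-/- and double mutant libraries were all below wild-type, and Clrn1-/- overlapped it. The log2 fold changes were -0.04 (SE 0.045, adjusted p = 0.6), -0.16 (SE 0.045, adjusted p = 0.0272) and -0.20 (SE 0.045, adjusted p = 0.00273), so that even the last amounted to 0.873-fold. The summed neuron markers given above were also lowest in the double mutant, and their part in the Atp2a2 values was not tested.

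Atp2a3 had 82.3, 81.9 and 92.5 CPM in wild-type libraries, 72.5, 74.6 and 84.5 in Clrn1-/-, 104, 79.9 and 109 in Clrn2-/-, and 100, 108 and 105 in the double mutant. The double mutant libraries lay above wild-type, at 1.22-fold (log2 fold change 0.29, SE 0.09, adjusted p = 0.02), and the other mutants overlapped it (-0.15, adjusted p = 0.251, and 0.19, adjusted p = 0.188). The second Clrn2-/- library stood well below the others of its genotype. Of 14 hair cell markers, 3 were called higher in the double mutant (Ocm, Tmc1 and Strc) and 2 lower (Gfi1 and Calb2), with a median log2 fold change of 0.25. Their summed level was set by Calb2, at 2649 to 3062 CPM in wild-type and 1577 to 1756 CPM in the double mutant, while the other 13 summed to 506 to 578 and 660 to 694 CPM. The part of hair cell RNA in the Atp2a3 values was not tested. Between Clrn1-/-Clrn2-/- and Clrn1-/- the difference was 1.35-fold (log2 fold change 0.43, adjusted p = 0.00161). Atp2a2 held 87.0 ± 0.765% of summed SERCA FPKM in wild-type and 82.7 ± 0.703% in Clrn1-/-Clrn2-/-, where Atp2a3 went from 12.8 ± 0.770% to 17.0 ± 0.799% and the sum went from 127 ± 1.55 to 116 ± 1.26 FPKM.

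**Figure D3:**
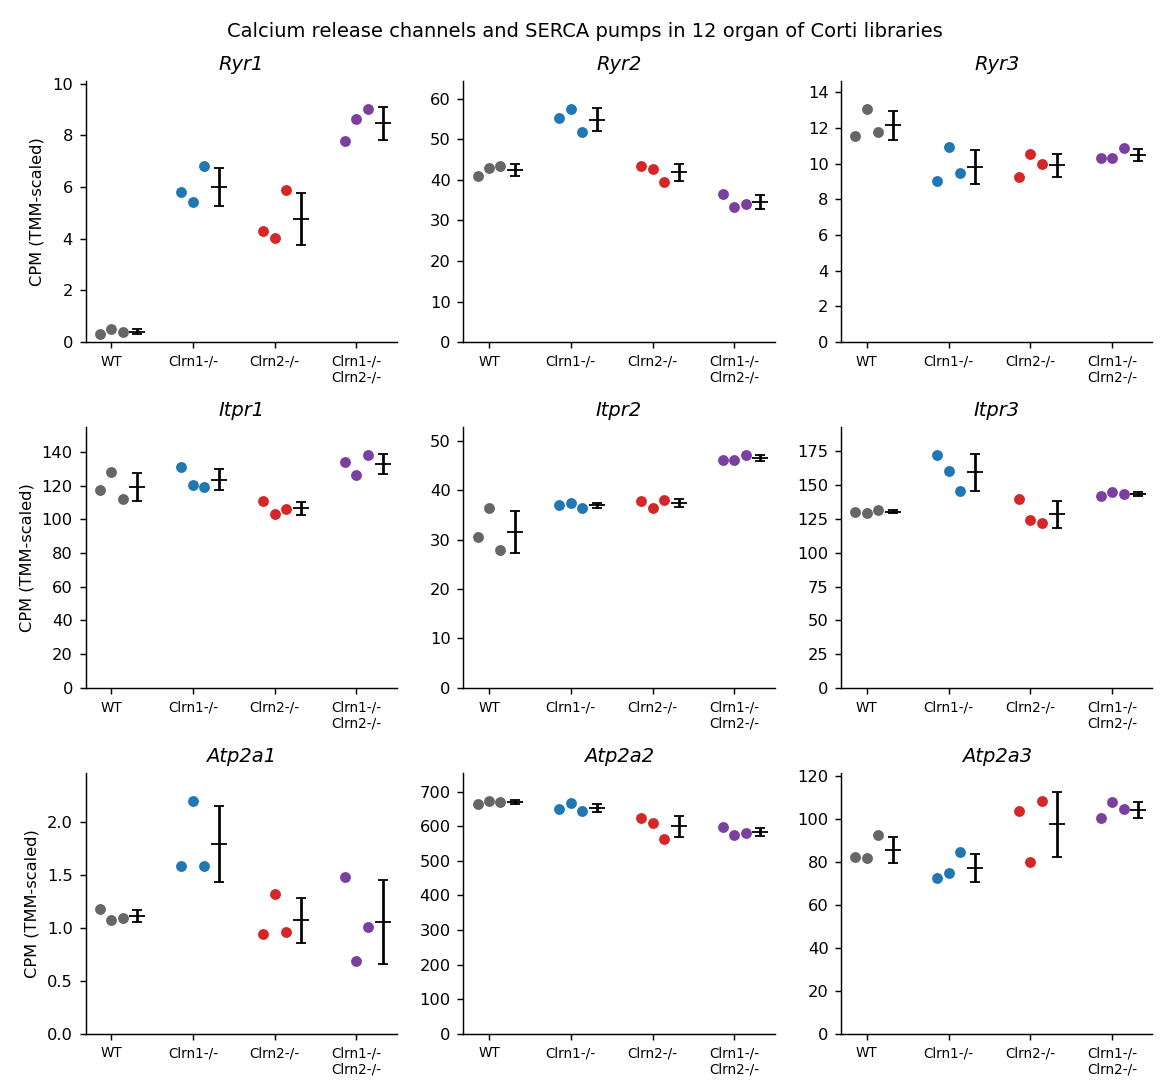
CPM of each gene in the 3 libraries of every genotype (points), with the mean and SD beside them, each panel on its own axis from 0. Ryr1 is the one panel in which all mutant points (4.04 to 9.02 CPM) are separated from the wild-type points (0.309 to 0.520 CPM) by more than the whole wild-type level, and Ryr2 lies above wild-type in Clrn1-/- and below it in the double mutant.

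Ryr1 and Atp2a1 are markers of skeletal muscle, so 26 muscle genes were read beside them. Of these, 22 could be tested, and Casq1 also belongs to the partner list below. The summed level of the 26 was 209 to 226 CPM in wild-type, 167 to 174 in Clrn1-/-, 150 to 159 in Clrn2-/- and 125 to 129 in Clrn1-/-Clrn2-/-. Without Pygm, the most abundant of them, the sums were 135 to 159, 139 to 143, 108 to 117 and 97.7 to 104 CPM, so that Clrn1-/- then overlapped wild-type. In each genotype 13 to 16 of the 26 had a mean under 1 CPM, and none was at 0 in all libraries of a genotype. Acta1, skeletal actin, had 0.577 ± 0.396 CPM in wild-type libraries, 0.477 ± 0.168 in Clrn1-/-, 0.788 ± 0.0317 in Clrn2-/- and 0.665 ± 0.205 in the double mutant. Ckm, muscle creatine kinase, had 0.198 ± 0.113, 0.146 ± 0.0542, 0.252 ± 0.127 and 0.280 ± 0.144 CPM in the same order, and neither passed the test in any mutant (adjusted p 0.519 to 0.75). Mylpf, a fast myosin light chain, was lower in Clrn1-/-Clrn2-/- (log2 fold change -1.10, adjusted p = 0.0225), and Ttn, titin, fell from 17.3 ± 1.30 CPM to 6.84 ± 0.143, 3.77 ± 0.536 and 2.66 ± 0.180 CPM. Over the list, 2 genes were called higher and 6 lower in Clrn1-/-, 0 and 4 in Clrn2-/-, and 1 and 8 in Clrn1-/-Clrn2-/-. The calls in the higher direction were Casq1 in both genotypes lacking clarin-1 and Myl1, a myosin light chain, in Clrn1-/-. In Clrn2-/- Casq1 had a log2 fold change of 0.37 (adjusted p = 0.0194), under the minimum fold. In wild-type Pygm, Mybpc1 and Neb averaged 71.4, 35.1 and 34.3 CPM. The summed level is thus set by a few abundant genes and does not measure muscle content. The part of muscle RNA in the Ryr1 and Atp2a1 values was not tested.

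**Figure D4:**
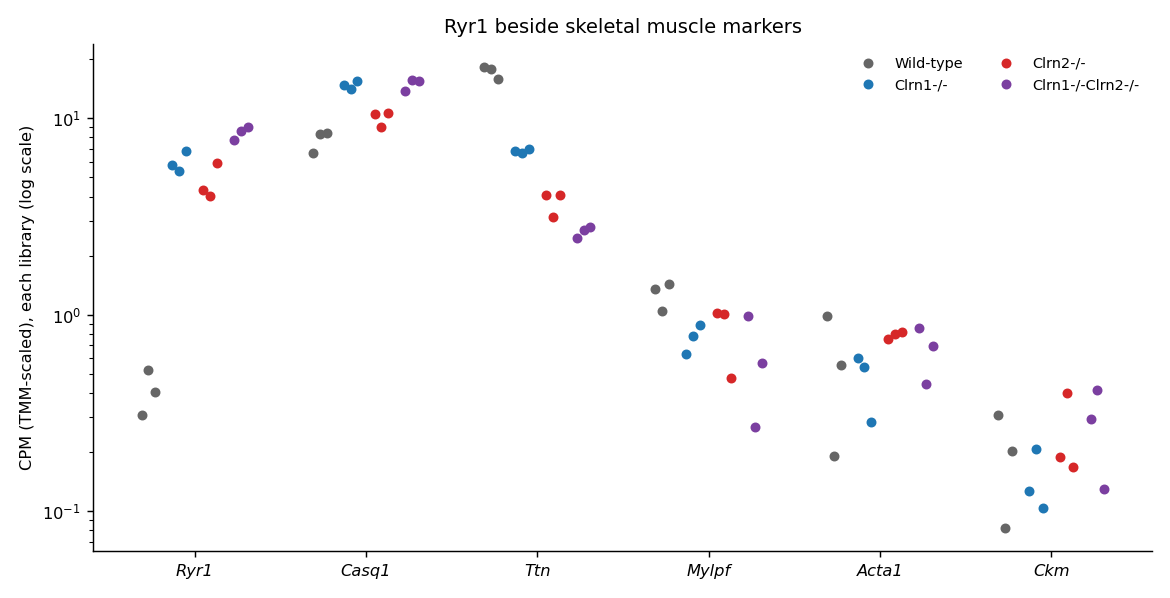
CPM (log scale) of Ryr1 and 5 skeletal muscle markers in every library, coloured by genotype. Ryr1 and Casq1 are higher, and Ttn is lower, in all mutant libraries than in any wild-type library, and Acta1 and Ckm stay below 1 CPM in all 12.

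Over the whole group, 2 of 9 genes were called in Clrn1-/- (Ryr1 and Atp2a1, both higher), beside 7.22% of all genes tested. In Clrn2-/- 1 of 9 was called, Ryr1, beside 2.66% of all genes, and in Clrn1-/-Clrn2-/- again Ryr1 alone, beside 9.9%. By adjusted p without a fold minimum, 6, 4 and 6 of the 9 passed, beside 26.9%, 14.2% and 37% of all genes. The median log2 fold change of the 9 was 0.23, -0.02 and 0.14, and that of all genes tested -0.0031, -0.0025 and 0.0010. The 3 comparisons share the wild-type libraries, so these counts are not independent of each other.

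**Figure D5:**
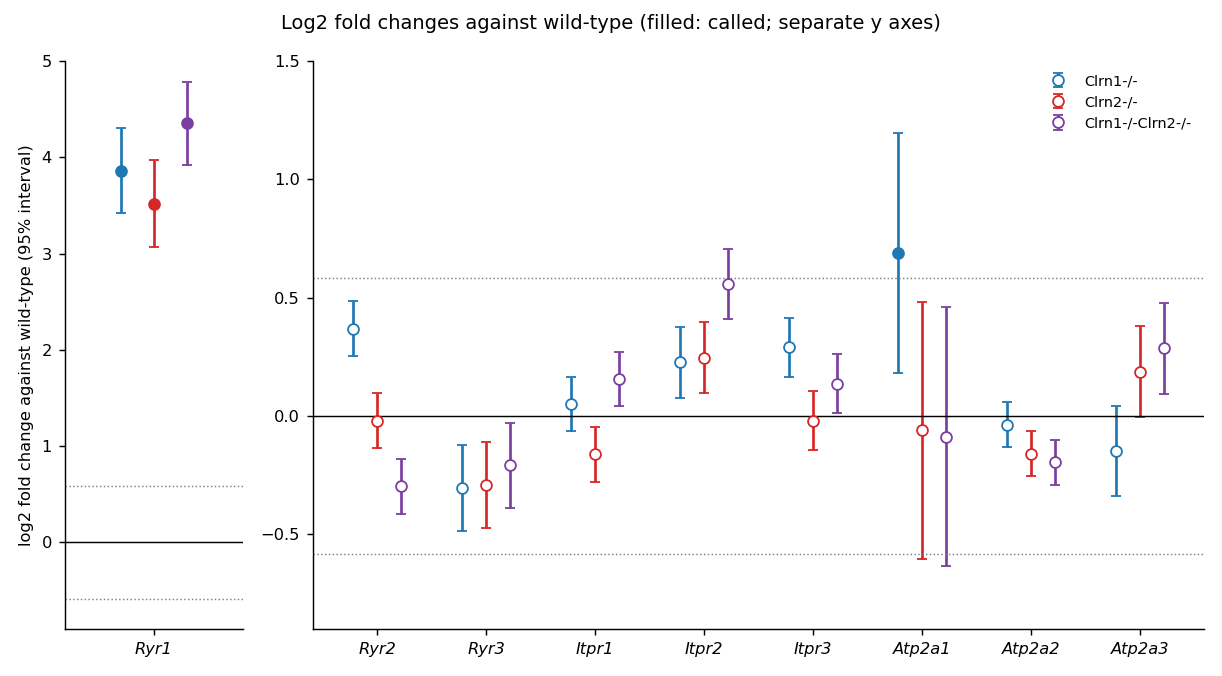
Log2 fold change of each gene against wild-type with its 95% interval, by mutant genotype, with filled points for called genes and dotted lines at a fold of 1.5 in either direction. Ryr1 is drawn on its own axis at 3.52 to 4.35, and of the other 24 values the Atp2a1 value in Clrn1-/- (0.69) is the one that was called.

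Direct comparison of the mutants addressed whether the change was larger when both clarins were lost. The mutants also came from different lines, the double mutant from a cross, so genotype and line cannot be told apart here either. Between Clrn1-/- and Clrn2-/- 1 of 9 genes was called, Atp2a1 (1.68-fold higher in Clrn1-/-, log2 fold change 0.75, adjusted p = 0.0417), beside 4.73% of all genes, and the call was lost with the replicate block (adjusted p = 0.0526) and without the first or second Clrn1-/- library or the first or the third Clrn2-/- library. Ryr1 was 1.27-fold higher in Clrn1-/- than in Clrn2-/- (95% interval 1.02 to 1.57, adjusted p = 0.117). Between Clrn1-/-Clrn2-/- and Clrn1-/- 2 of 9 were called, Ryr2 and Atp2a1 (log2 fold change -0.78, adjusted p = 0.0238), both lower in the double mutant, beside 7.23% of all genes. Atp2a1 lost that call without the second Clrn1-/- library or the second or the third double mutant library. Ryr1 was 1.41-fold higher there (log2 fold change 0.49, SE 0.14, adjusted p = 0.0134), under the minimum fold, and reached it without the third Clrn1-/- library (0.59). Between Clrn1-/-Clrn2-/- and Clrn2-/- 1 of 9 was called, Ryr1 (1.78-fold higher, log2 fold change 0.84, SE 0.14, adjusted p = 0.000492), beside 5.1% of all genes.

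The interaction term asks whether the log2 change in the double mutant equals the sum of the single mutants' changes. It was called for 2 of 9 genes, Ryr1 and Ryr2, beside 5.5% of all genes. For Ryr1 it was -3.02 (SE 0.26, adjusted p = 3e-06), meaning that the double mutant's level was 0.123-fold of what the single changes would give if multiplied. For Ryr2 it was -0.65 (SE 0.08, adjusted p = 4.86e-05), the double mutant falling below wild-type although neither single mutant did so beyond its error. By adjusted p alone Ryr3 (0.39, adjusted p = 0.0385) and Itpr1 (0.27, adjusted p = 0.0242) also passed, making 4 of 9 beside 17.4% of all genes.

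Other genes of the calcium store were read from 9 lists holding 109 genes, of which 105 were tested. Of these, 3 were called higher and 3 lower in Clrn1-/-, 2 higher and 1 lower in Clrn2-/-, and 8 higher and 1 lower in Clrn1-/-Clrn2-/-, or 5.71%, 2.86% and 8.57% of those tested, near the 7.22%, 2.66% and 9.9% of all genes. The median log2 fold change of the lists was 0.01, 0.05 and 0.07. Among 20 tested genes of the ryanodine receptor complex and its junctional partners, 5 were called in Clrn1-/-, 1 in Clrn2-/- and 3 in the double mutant, beside those same shares of all genes. Casq1, the calcium-binding protein of the muscle store lumen, rose from 7.80 ± 0.969 CPM in wild-type to 14.9 ± 0.664 in Clrn1-/- (log2 fold change 0.93) and 15.0 ± 0.996 in Clrn1-/-Clrn2-/- (0.94), and Jph4, a neuronal junctophilin that holds store and surface membrane together, rose in Clrn1-/- from 26.4 ± 1.15 to 49.2 ± 1.91 CPM. Trdn (triadin, the anchor of calsequestrin at the channel, -0.84), Jph2 (-0.62) and Stac3 (an adaptor of the muscle voltage sensor, -0.62) fell in Clrn1-/-, each from under 3 CPM. In Clrn2-/- Jsrp1, a junctional protein, rose (0.61).

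In Clrn1-/-Clrn2-/- Fkbp1b, the calstabin that binds Ryr2 and steadies its closed state, fell from 23.6 ± 0.837 to 12.2 ± 1.07 CPM (log2 fold change -0.95), and S100a1, a calcium sensor that binds ryanodine receptors and SERCA, rose from 424 ± 34.5 to 676 ± 21.4 CPM (0.67). Among 7 tested SERCA regulators Pln, phospholamban, which restrains the pump, fell in Clrn2-/- (-0.79) and no other passed in a mutant. On the IP3 side, 1 of 14 tested IP3 receptor partners was called in Clrn1-/- and in Clrn1-/-Clrn2-/-, Lrmp, which binds IP3 receptors (0.78 and 0.65). Among 16 genes of IP3 production, Gna14, a Gq subunit, rose from 19.9 ± 2.06 to 48.9 ± 1.33 CPM in Clrn1-/-Clrn2-/- (1.29) and Plcd3, a phospholipase C, from 51.0 ± 3.86 to 83.1 ± 3.97 CPM (0.70). Of 11 luminal buffers, Hspa5, the chaperone BiP, rose in Clrn2-/- (0.67) and Clrn1-/-Clrn2-/- (0.81), and Rcn1 in Clrn1-/-Clrn2-/- (0.82). Sec61a1, the translocon subunit through which calcium can leak, rose there too (0.72). No gene was called against wild-type among 8 genes of IP3 metabolism, 8 of store-operated entry and 13 of mitochondrial uptake.

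The genes whose level followed each member most closely over the 12 libraries were found by Pearson's r of log2 CPM, as a description over libraries that share genotype and depth. For Ryr1 they were Bcl2l11 (r = 0.987), Insr (0.979) and Lmod3 (0.974), of which Lmod3, a leiomodin of striated muscle thin filaments, went from 1.70 CPM in wild-type to 5.41, 5.27 and 8.04 CPM in the 3 mutants. For Ryr2 they were Myl1 (0.981), Erich3 (0.976) and Mtmr9 (0.966), with Myl1 at 9.48, 39.7, 6.83 and 2.71 CPM in the order of genotypes used above. Ryr3 was followed by Zfp566, C1ql1 and Slfn14 (0.911 to 0.878), and Atp2a1 by Il31ra, Tmem200c and Bpifa1 (0.904 to 0.879), less closely than the others. Itpr1 was followed by Mbtps1, Slc12a4 and Fmn1 (0.945 to 0.929), Itpr2 by Tmem255b, Rab31 and Osmr (0.975 to 0.961), and Itpr3 by Lurap1, Atrn and Col4a1 (0.968 to 0.961). For Atp2a2 they were Tbc1d9b, St3gal2 and Kif1a (0.968 to 0.961), and for Atp2a3 Cd164l2, Liph and Gipc3 (0.946 to 0.944).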

How the data were processed

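Organ of Corti RNA from 12 libraries (3 for each of 4 genotypes) was sequenced by the authors as paired 100-base reads from poly(A)-selected, directional libraries. The deposited files hold gene counts made by the authors with STAR (version not given in the sources used here) against GRCm38.p6, named in the submitters' processing notes, and Gencode vM24, as whole numbers with no normalization. The reverse-strand column was used, the unstranded column as an alternative, and the forward column as opposite-strand counts. Reads not assigned to a gene (13.5 to 15.8% of each library) were left out. The count tables were tested with edgeR 4.0.16 (R 4.3.3): genes passing filterByExpr with a minimum count of 10, trimmed mean of M-values scaling and quasi-likelihood tests over all 12 libraries. limma 3.58.1 (voom, the test used in the study) and DESeq2 1.42.0 served as alternatives, with other filters, scalings and left-out libraries. FPKM values were computed from the scaled counts and merged exon lengths of an earlier Gencode release of the same build. Promoter sequences came from RefSeq, which held a full window for 6 of the 9 genes. CPM stands for counts per 1000000 scaled counts of a library. Scripts were tested on simulated data.

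The genes and lists were chosen with earlier results of these data known. Named in every comparison were all 9 members. Also named were the called genes of each calcium store list, at most 3 per direction and comparison by size, the 3 genes most correlated with each member, Acta1, Ckm, Mylpf and Ttn, and Clrn1 and Clrn2. The neighbours of Ryr1 and the marker genes named beside the 4 above were chosen after their values were seen. Same-numbered wild-type and Clrn1-/- libraries had deviations from their genotype means that correlated at 0.269, 0.126 and 0.105 over 12453 genes. No other pair of genotypes exceeded 0.1 in all 3 numbers. Single values were as large elsewhere and of either sign, such as 0.255, -0.277 and 0.301 for wild-type and the double mutant. The labels do not say that replicate numbers pair libraries, and these values do not settle it.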

Additional observations from a re-analysis of the deposited data

Results flagged for a closer look

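The change in the double mutant differed from the sum of the single mutants' log2 changes, by the interaction term of edgeR's quasi-likelihood test, for Ryr1 (-3.02, adjusted p = 3e-06) and Ryr2 (-0.65, adjusted p = 4.86e-05). The same term was 0.39 for Ryr3 (adjusted p = 0.0385) and 0.27 for Itpr1 (adjusted p = 0.0242), both under the minimum fold. All 4 use the same wild-type libraries as the comparisons with wild-type.

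The opposite-strand column, which the comparisons do not use, held more counts of Itpr1 and Atp2a3 in every Clrn1-/-Clrn2-/- library than in any wild-type library. Itpr1 had 0.363 ± 0.0551 CPM on that strand against 0.198 ± 0.0474 in wild-type (11 to 13 against 6 to 9 counts). Atp2a3 had 0.358 ± 0.0788 against 0.143 ± 0.0769 CPM (9 to 16 against 2 to 7 counts), and in both genes these counts were under 0.4% of the stranded total. Itpr1 and Atp2a3 were picked for this separation from the 9 members, each read in every mutant genotype. Opposite-strand counts were not tested, and the share of all genes with such a separation was not computed. Whether these separations exceed those expected by chance was therefore not tested.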

How the results depend on the processing

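The call of Ryr1 against wild-type held in all 3 mutants under every alternative run, with log2 fold changes of 3.70 to 4.06 in Clrn1-/-, 3.34 to 3.72 in Clrn2-/- and 4.19 to 4.54 in Clrn1-/-Clrn2-/-, and no called value changed direction. Among members called in Clrn1-/- against wild-type, 1 rather than 2 remained under limma-voom with an FPKM filter, DESeq2, the replicate block and unstranded counts. In Clrn1-/- against Clrn2-/-, 0 rather than 1 remained under limma-voom with an FPKM filter, DESeq2 and the replicate block. In Clrn1-/-Clrn2-/-, 2 rather than 1 were called against wild-type with library size alone, and 1 rather than 2 against Clrn1-/- with unstranded counts. The replicate block changed no other count. Without a fold minimum the counts became 6, 4 and 6 against wild-type, 5, 6 and 4 between mutants and 4 for the interaction. The shares of all genes passing were then 26.9%, 14.2% and 37% against wild-type, 18.5%, 30.4% and 27.6% between mutants and 17.4% for the interaction. Leaving out 1 library at a time gave 1 to 2 calls in Clrn1-/- and in Clrn1-/-Clrn2-/- against wild-type, 0 to 1 in Clrn1-/- against Clrn2-/- and 1 to 3 in Clrn1-/-Clrn2-/- against Clrn1-/-. Every lost call was that of Atp2a1, which rested on 23 to 85 counts, and the cause was not tested. A fit on 2 genotypes alone could not give an interaction.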
